A study of Mus musculus with 2 samples.

Results

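The BCL2 family of apoptosis regulators was followed through 10 genes, which were taken by gene symbol from the 51912 gene rows of the deposited count tables. They were the anti-apoptotic genes Bcl2, Bcl2l1 and Mcl1, the effector genes Bax and Bak1, and the BH3-only genes Bad, Bid, Bcl2l11, Bbc3 and Pmaip1. BCL2 family proteins meet at the outer membrane of mitochondria. There BAX and BAK form pores that release cytochrome c and start the caspases, the anti-apoptotic proteins hold BAX and BAK in check, and the BH3-only proteins bind to either side through a short helix, the BH3 motif, when a cell is damaged or starved of growth signals. In fibroblasts, as in most cells, the balance among these classes is known to set how readily a cell dies.

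The RNA came from 2 bulk libraries of mouse embryonic fibroblasts (MEFs) on a C57BL/6 background, both immortalized with SV40 T antigen (SV40T), a viral protein that binds and disables p53 and the retinoblastoma proteins. UKS cells carried floxed Usp16 alleles (Usp16flox/flox) that were deleted with Ad-Cre, an adenovirus delivering Cre recombinase, to give Usp16-/-. KS cells were Usp16+/+ and had been infected with Ad-Cre as well. Each line gave 1 library, and the labels do not say whether a line was a single clone or how many embryos it came from. The comparison asks how transcripts differ in these cells when USP16, an enzyme that takes ubiquitin off histone H2A, is deleted.

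With 1 library in each group there is no replicate check, so no test between the lines was made and every value describes these 2 libraries. The deposited values are estimated counts per gene. They were scaled to CPM, each count taken relative to its library total, adjusted by TMM, a method that sets the bulk of genes level. Ratios are given as log2((UKS + 1)/(KS + 1)) in CPM (differences of low genes come out too small on it), and folds as plain ratios of CPM. Square brackets hold the exact 95% counting interval of a fold, which leaves out all variation between cultures. The totals were 23205734 counts in UKS and 26561600 counts in KS. Usp16 itself had 459 counts in UKS and 1195 counts in KS, 2.30-fold lower in UKS [2.07 to 2.57], a log2 ratio of −1.16, and −0.88 on the scale with the length and GC trend removed that is introduced below. Gene counts do not show whether the remaining UKS reads came from outside the deleted part. The 11 fibroblast markers were all measured and summed to 21253 CPM in UKS and 18888 CPM in KS. Fibronectin (Fn1) and vimentin (Vim), the most abundant, stood at 14582 and 2413 CPM in UKS and at 8995 and 4205 CPM in KS. The higher sum of UKS rested on Fn1, and the median log2 ratio of the list was −0.21, or −0.28 with the trend removed. Decorin (Dcn) was higher in UKS, with 6209 counts in UKS and 679 in KS, while Thy1 (831 in UKS, 4424 in KS) and Pdgfra (2471 in UKS, 7982 in KS) were lower. Blood cell markers summed to 69.7 CPM in UKS and 25.6 CPM in KS, most of it Cd14. Cd68 had 113 counts in UKS and 154 counts in KS, and Coro1a had 59 counts in UKS and 24 counts in KS. The leukocyte gene Ptprc had 1 count in UKS and 2 counts in KS, and Adgre1 and Cd3e had 0 in both. Epithelial markers summed to 12.9 CPM in UKS and 19.9 CPM in KS, and endothelial markers to 3.64 CPM in UKS and 3.41 CPM in KS. The part of these marker differences in the values below was not tested. Xist, which is transcribed from the inactive X chromosome, had 6998 counts in UKS and 1 count in KS. The Y-linked genes Ddx3y, Eif2s3y, Kdm5d and Uty had 0 to 8 counts in UKS and 817 to 1511 counts in KS. The lines therefore differed in sex-linked transcripts as well as in Usp16, and which of these goes with a value below cannot be told apart. In bulk RNA, fewer cells of a type and less RNA per cell cannot be told apart either.

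What the 10 genes share is the BH3 motif, so its coding bases are shown for 9 of them, to let the shared core be read beside the values. A search of the annotated coding transcripts for the BH3 core (a leucine, 3 variable residues, a glycine, alanine or serine, and an aspartate) found it 1 time in the longest coding transcript of each of these 9 genes, and 2 times in that of Pmaip1, whose sequence is not printed. Each stretch of 57 bases holds 6 codons before the core, the 6 codons of the core in capitals and 7 codons after it, 5′ to 3′ on the coding strand, from GENCODE M21 on GRCm38, and each lies within a single coding exon. Some other annotated coding transcripts lack the core, since it was found in 1 of 3 of Bbc3, 1 of 2 of Bid, 3 of 5 of Bax, 6 of 8 of Bad, 4 of 5 of Bcl2l11 and 7 of 8 of Bcl2l1, and gene counts do not separate these forms.
Bcl2 (chr1:106712563-106712619, minus strand): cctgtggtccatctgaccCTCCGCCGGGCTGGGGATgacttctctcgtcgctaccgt
Bcl2l1 (chr2:152829685-152829741, minus strand): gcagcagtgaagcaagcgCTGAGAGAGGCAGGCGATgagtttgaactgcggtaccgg
Mcl1 (chr3:95659418-95659474, plus strand): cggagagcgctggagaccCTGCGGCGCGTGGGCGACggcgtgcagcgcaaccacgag
Bax (chr7:45465985-45466041, minus strand): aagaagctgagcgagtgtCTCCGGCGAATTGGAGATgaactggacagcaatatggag
Bak1 (chr17:27022519-27022575, minus strand): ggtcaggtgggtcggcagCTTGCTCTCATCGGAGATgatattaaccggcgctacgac
Bad (chr19:6950774-6950830, plus strand): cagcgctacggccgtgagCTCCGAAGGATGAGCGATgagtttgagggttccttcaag
Bid (chr6:120897277-120897333, minus strand): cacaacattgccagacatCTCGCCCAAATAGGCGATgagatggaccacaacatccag
Bcl2l11 (chr2:128147132-128147188, plus strand): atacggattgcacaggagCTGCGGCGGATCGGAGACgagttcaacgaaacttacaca
Bbc3 (chr7:16313755-16313811, plus strand): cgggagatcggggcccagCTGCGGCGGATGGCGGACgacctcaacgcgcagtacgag

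Over the 36 pairs of these 9 genes, between 7 and 15 of the 18 core bases were the same, with a median of 11. The search fixed the leucine and aspartate at its ends, but not their codons. Bbc3 and Bcl2l11 shared the most core bases (15 of 18), and Bak1 and Bcl2l1 the fewest (7 of 18). The codon that may be glycine, alanine or serine encoded glycine in 7 of the 9, alanine in Bbc3 and serine in Bad. Over all 57 bases the pairs shared 18 to 32.

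All 10 genes were measured, with 164 to 4418 counts in UKS and 458 to 3585 counts in KS, and all had a mean of at least 1 CPM. As counted, 8 of 10 had a log2 ratio above 0, against 51.9% of the 13015 genes that reached this level. The median of the 10 was 0.24, against 0.03 over all genes. None of the 10 was at least 2-fold higher in UKS on the log2 scale, where 5.81% of all genes were. Bcl2 was at least 2-fold lower in UKS, 1 of 10 members, where 10.7% of all genes were, so the family held about the background share of large differences. The counting interval of the ratio lay wholly above 1 for 8 members, wholly below 1 for Bcl2, and included 1 for Pmaip1. At these counts it leaves out 1 even for small ratios, such as 1.09 [1.03 to 1.15] for Bcl2l1. The share of all genes with such intervals is not given here, so this count describes the members only.

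**Figure D1:**
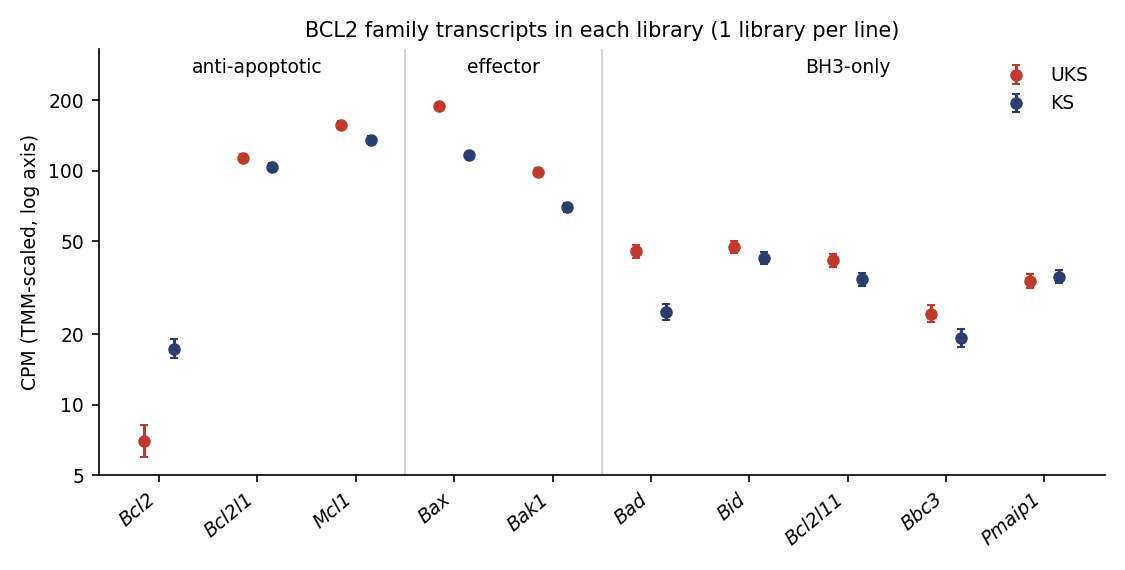
Level of each BCL2 family transcript in CPM on a log axis, in UKS (left of each pair) and KS (right), with 1 library per line and bars for exact 95% Poisson counting intervals. Bcl2 is the lowest member in both libraries at 7.02 CPM in UKS and 17.3 CPM in KS, and Bax, Bak1 and Bad stand visibly higher in UKS.

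Ratios in these libraries went with the length and base composition of the transcript, and values of single members are therefore given on a pair of scales. Sorted by length, the shortest 10% of transcripts (median 956 nt) had a median log2 ratio of 0.38 and the longest 10% (median 8219 nt) one of −0.65. Sorted by GC content, the most AT-rich 10% (median GC 39.8%) had a median of −0.81 and the most GC-rich 10% (59.9%) one of 0.40. The members cover much of that range, from 1100 nt in Bax to 7191 nt in Bcl2 and from 42.1% GC in Pmaip1 to 65.2% in Bbc3. Over the 10 members, Spearman's rho between log2 ratio and length was −0.73, and that between log2 ratio and GC content was 0.78, a description over genes of the same 2 libraries and not over replicates. A robust regression of the ratio on both properties was subtracted to give a further value for each of the 12997 genes with a known length and GC content. On that scale 6 of 10 members were above 0, against 50.4% of all genes, and the median was 0.10, against 0.005 over all genes. None was past 2-fold in either direction, where 5.51% of all genes were higher and 4.95% lower. Whether the trend is technical or belongs to the cells was not tested, and removing it would also remove a true difference that follows length or GC content.

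**Figure D2:**
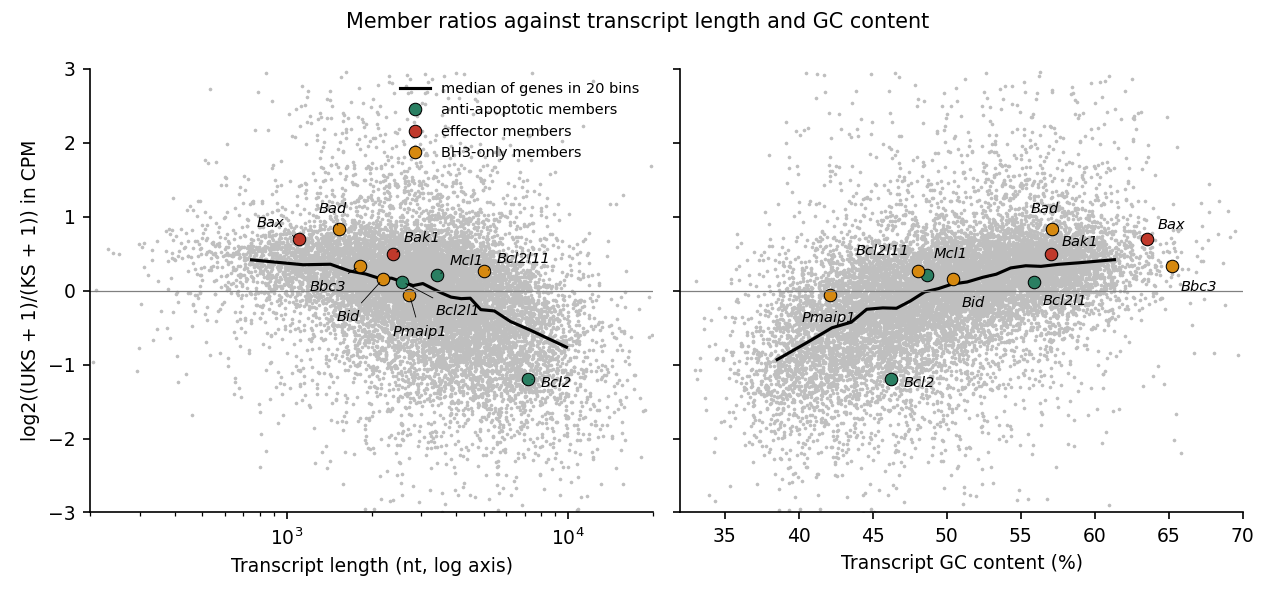
Log2 ratio of UKS over KS against transcript length (left, log axis) and GC content (right) for all measured genes (grey points, genes beyond 3 in either direction not drawn) and for the members, coloured by class. The black line joins the medians of 20 bins of genes. Bcl2 lies below the line in both panels, and Bax, Bbc3 and Bad lie at the short and GC-rich ends where the line is above 0.

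The anti-apoptotic genes did not share a direction, because Bcl2 was lower in UKS while Bcl2l1 and Mcl1 were nearly level. Bcl2 (ENSMUSG00000057329; GRCm38 chromosome 1, 106538178 to 106714274, minus strand), the founding member, which blocks the release of cytochrome c, had 164 counts (7.02 CPM) in UKS and 458 counts (17.3 CPM) in KS. It was 2.47-fold lower in UKS [2.06 to 2.97], a log2 ratio of −1.19, and 7.41% of all genes had a lower ratio. Its transcript is the longest of the family, and the trend alone would put such a transcript at −0.54. With the trend removed its log2 ratio was −0.65, still the lowest of the 10, with 10.4% of all genes lower still. That equals 1.57-fold lower on the log2 scale, which adds 1 CPM to each level, and is not a like measure to the plain 2.47-fold. D630008O14Rik, an antisense gene that overlaps 558 exonic bases of Bcl2, had 0 counts in both libraries.

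Bcl2l1 (ENSMUSG00000007659; chromosome 2, 152780668 to 152831728, minus strand) encodes BCL-XL, which holds BAX and BAK inactive in many cell types. It had 2648 counts (113 CPM) in UKS and 2749 counts (104 CPM) in KS, a ratio of 1.09 [1.03 to 1.15]. On the log2 scale that is 0.12, against −0.23 after removal of the trend, so its direction rested on the scale. Mcl1 (ENSMUSG00000038612; chromosome 3, 95658788 to 95663176, plus strand) encodes a short-lived protein that binds BAK and several BH3-only proteins. It had 3674 counts (157 CPM) in UKS and 3585 counts (136 CPM) in KS, a ratio of 1.16 [1.11 to 1.21], with log2 ratios of 0.21 as counted and 0.25 with the trend removed.

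Both effector genes were higher in UKS as counted, within 2-fold. Bax (ENSMUSG00000003873; chromosome 7, 45461697 to 45466898, minus strand), which encodes the pore-forming protein that moves from the cytosol to mitochondria, had 4418 counts (189 CPM) in UKS and 3075 counts (116 CPM) in KS. The ratio was 1.62 [1.55 to 1.70], and its log2 value of 0.70 stood above that of 88.9% of all genes. Bak1 (ENSMUSG00000057789; chromosome 17, 27019810 to 27029009, minus strand), whose product sits in the mitochondrial membrane, had 2302 counts (98.6 CPM) in UKS and 1839 counts (69.7 CPM) in KS, a ratio of 1.42 [1.33 to 1.51] and a log2 ratio of 0.50. With the trend removed the log2 ratios were 0.11 for Bax and 0.09 for Bak1, close to the median of all genes on that scale (0.01). Bak1 shares 437 exonic bases with Ggnbp1 on the opposite strand, which had 172 counts in UKS and 72 counts in KS, so reads of Bak1 and Ggnbp1 could not be told apart if counting did not use strand. Bax shares 192 exonic bases with Gm45808 on its own strand, which had 0 counts in UKS and 7 counts in KS.

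Among the BH3-only genes Bad stood out as counted. Bad (ENSMUSG00000024959; chromosome 19, 6941861 to 6951899, plus strand), whose protein binds BCL2 and BCL-XL and is held in the cytosol by 14-3-3 proteins when phosphorylated, had 1055 counts (45.2 CPM) in UKS and 659 counts (24.96 CPM) in KS. The ratio was 1.81 [1.64 to 1.998] and the log2 ratio 0.83, the highest of the 10 and above 92.0% of all genes. With the trend removed it was 0.33, above 76.6% of all genes. Bad overlaps Gpr137 on the opposite strand over 524 exonic bases, and Gpr137 had 566 counts in UKS and 440 counts in KS. The deposited counts of Bad were not whole (1055.08 in UKS and 658.73 in KS). Nor were those of Bid (1105.83 in UKS and 1123.18 in KS) and that of Bcl2 in UKS (164.35). What made them so is not given in the sources used here.

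Bcl2l11 and Bbc3 were slightly higher in UKS as counted. Bcl2l11 (ENSMUSG00000027381; chromosome 2, 128126038 to 128162547, plus strand) encodes BIM, which binds all the anti-apoptotic proteins and is degraded when ERK is active. It had 967 counts (41.4 CPM) in UKS and 907 counts (34.4 CPM) in KS, a ratio of 1.21 [1.10 to 1.32]. On the log2 scale it stood at 0.26, and at 0.50 once the trend was removed, the highest of the 10 on that scale. Bbc3 (ENSMUSG00000002083; chromosome 7, 16308393 to 16318205, plus strand) encodes PUMA, a p53 target that binds the same range of partners. It had 573 counts (24.5 CPM) in UKS and 508 counts (19.2 CPM) in KS, a ratio of 1.28 [1.13 to 1.44], with a log2 ratio of 0.34 as counted and −0.15 with the trend removed.

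Bid and Pmaip1 were close to level as counted. Bid (ENSMUSG00000004446; chromosome 6, 120891930 to 120916853, minus strand), whose protein is cut by caspase-8 and carries death receptor signals to mitochondria, had 1106 counts (47.4 CPM) in UKS and 1123 counts (42.5 CPM) in KS, a ratio of 1.11 [1.02 to 1.21]. The log2 values were 0.15 as counted and −0.04 after removal of the trend. Bid shares 628 exonic bases with Bcl2l13 on the opposite strand, another family gene with 1441 counts in UKS and 1768 counts in KS. Pmaip1 (ENSMUSG00000024521; chromosome 18, 66458533 to 66465565, plus strand) encodes NOXA, a p53 target that binds mainly MCL1. It had 792 counts (33.9 CPM) in UKS and 930 counts (35.2 CPM) in KS, a ratio of 0.963 [0.875 to 1.06] that included equal levels. The log2 values were −0.05 as counted and 0.34 after removal of the trend, and its transcript has the lowest GC content of the family.

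**Figure D3:**
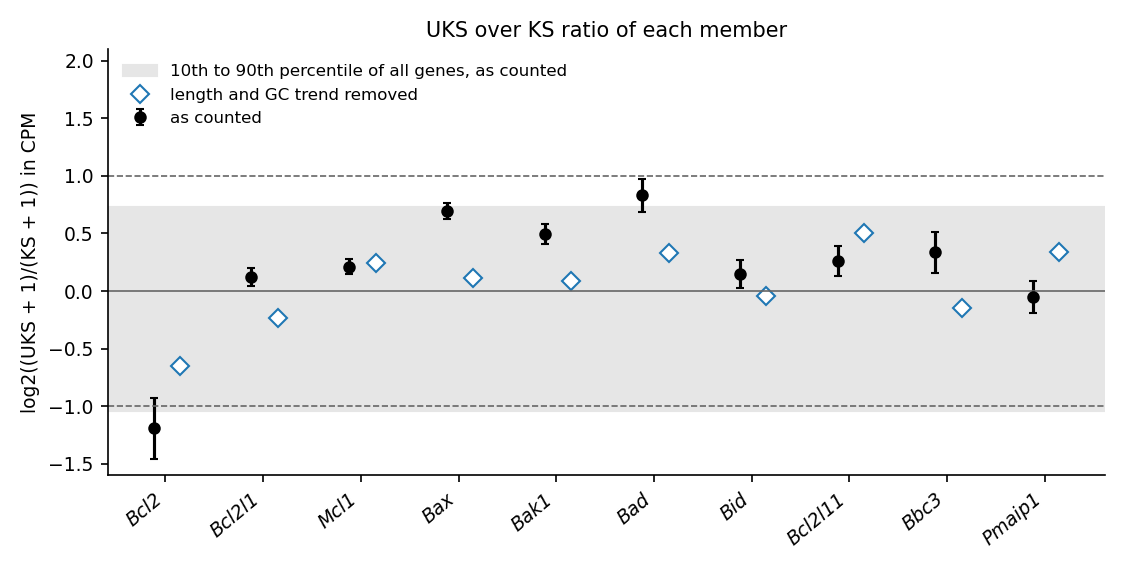
Log2 ratio of UKS over KS for each member as counted (black) and with the length and GC trend removed (open diamonds). The grey band is the 10th to 90th percentile of all genes as counted, and dashed lines mark 2-fold. Black bars have the width of the exact 95% counting interval of the plain fold but are centred on the log2 ratio. For the low gene Bcl2 the bar therefore crosses the 2-fold line, which the interval of its fold (2.06 to 2.97-fold lower) does not. As counted, Bcl2 alone passes 2-fold, at −1.19. With the trend removed the members lie between −0.65 and 0.50.

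Levels were compared between genes per kb of the longest coding transcript. Bax was the most abundant member by this measure in both lines, at 172 CPM per kb in UKS and 106 in KS, and Bcl2 the least, at 0.977 CPM per kb in UKS and 2.41 in KS. In UKS the order was Bax, Mcl1, Bcl2l1, Bak1, Bad, Bid, Bbc3, Pmaip1, Bcl2l11 and Bcl2, where the counting intervals of Mcl1 and Bcl2l1, of Bcl2l1 and Bak1, and of Bbc3 and Pmaip1 overlapped. In KS it was Bax, Bcl2l1, Mcl1, Bak1, Bid, Bad, Pmaip1, Bbc3, Bcl2l11 and Bcl2, where the intervals of Bcl2l1 and Mcl1 overlapped and those of the other neighbours did not. Bad and Bid stood in opposite order, at 29.5 and 21.6 CPM per kb in UKS and at 16.3 and 19.4 CPM per kb in KS. Bcl2 made up 1.07% of the summed anti-apoptotic level in UKS and 2.92% in KS, beside Bcl2l1 at 48.4% in UKS and 49.0% in KS. The difference in Bcl2 therefore moved the anti-apoptotic sum little. The transcript expressed need not be the longest, so these levels are approximate.

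**Figure D4:**
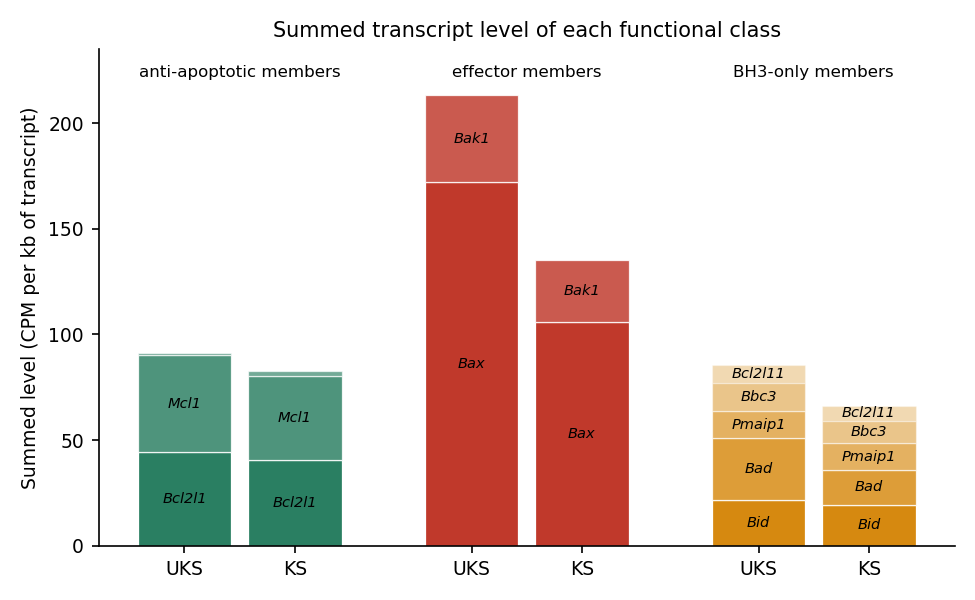
Summed level of the anti-apoptotic, effector and BH3-only members in CPM per kb of transcript, in UKS (left bar of each pair) and KS (right bar), with 1 library per line and each bar divided by member. The effector sum is 213 in UKS and 135 in KS, the largest difference of the 3 classes, and Bcl2 is the thin unlabelled band at the top of the anti-apoptotic bars.

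By class, the effector sum differed most. It was 213 CPM per kb in UKS and 135 in KS, a ratio of 1.58, against 85.3 in UKS and 66.1 in KS for the BH3-only sum (1.29) and 91.2 in UKS and 82.7 in KS for the anti-apoptotic sum (1.10). The anti-apoptotic sum was thus 0.427 times the effector sum in UKS and 0.612 times in KS. With the trend removed the class ratios were 1.08 for the effectors, 1.13 for the BH3-only genes and 1.01 for the anti-apoptotic genes. For that scale the KS level of each member was left as counted, and its UKS level was set to the KS level times the trend-removed ratio. The anti-apoptotic sum was then 0.571 times the effector sum in UKS, against the 0.612 of KS, which is unchanged by construction. The difference between the lines was thus smaller there. The BH3-only sum was 0.936 times the anti-apoptotic sum in UKS and 0.799 times in KS, and 0.902 times in UKS with the trend removed.

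Ratios between partners within a library do not depend on how the libraries are scaled to each other. Values with the trend removed come from the log2 scale, which adds 1 CPM to each level. For pairs with the low gene Bcl2, part of their distance from the plain ratios comes from that addition. Per kb, Bax stood at 176 times Bcl2 in UKS and 43.9 times in KS, a 4.01-fold higher ratio in UKS [3.33 to 4.85], and 1.70-fold with the trend removed. Bad to Bcl2 was 30.2 in UKS and 6.75 in KS, 4.47-fold higher [3.63 to 5.51], and 1.97-fold with the trend removed. Bcl2l11 to Bcl2 was 8.42 in UKS and 2.83 in KS, 2.98-fold higher [2.43 to 3.66], and 2.22-fold with the trend removed. These 3 pairs share the low Bcl2 value of UKS and are not separate observations. Pairs built on the abundant Bcl2l1 and Mcl1 differed less. Bax to Bcl2l1 was 3.90 in UKS and 2.61 in KS, a ratio of 1.49 [1.39 to 1.60], and 1.27 with the trend removed. Bad to Bcl2l1 was 0.667 in UKS and 0.402 in KS, a ratio of 1.66 [1.49 to 1.86], and 1.48 with the trend removed. Bbc3 to Bcl2l1 gave 1.17 [1.03 to 1.34] and Bak1 to Mcl1 gave 1.22 [1.13 to 1.32]. With the trend removed these were 1.06 for Bbc3 to Bcl2l1 and 0.898 for Bak1 to Mcl1. Pmaip1 to Mcl1, the pair in which NOXA meets its main partner, was 0.270 in UKS and 0.325 in KS, a ratio of 0.831 [0.747 to 0.925] as counted, and 1.07 after removal of the trend.

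Of 18 further BCL2 family genes 10 were measured at a mean of at least 1 CPM, with a median log2 ratio of 0.06. None was past 2-fold, where 5.81% of all genes were higher and 10.7% lower. As counted, the largest ratios were those of Bcl2l12 (0.54), Bnip3l, a mitophagy receptor (−0.47), Bmf, a BH3-only gene (0.46 from 90 counts in UKS and 67 in KS), and Bnip3 (0.34). After removal of the trend these stood at −0.01 for Bcl2l12, 0.01 for Bnip3l, 0.39 for Bmf and 0.67 for Bnip3, and the largest was that of Bok, a relative of the effectors, at −0.82. The anti-apoptotic Bcl2l2 had 563 counts in UKS and 640 in KS, a ratio of 0.995 [0.887 to 1.12]. The anti-apoptotic Bcl2a1a, Bcl2a1b and Bcl2a1d had 0 counts in both libraries, where 3 counts would equal 0.128 CPM in UKS and 0.114 CPM in KS, and the BH3-only genes Bik and Hrk had 0 to 2 counts.

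A further list held 24 measured genes that act at the mitochondria or downstream of them. Of these, 1 was past 2-fold on the higher side in UKS and 3 on the lower side, where 5.81% and 10.7% of all genes were, and the median was 0.04. The lower genes were Birc6, a giant inhibitor of apoptosis (2142 counts in UKS and 7232 in KS, −1.57), Dnm1l, the mitochondrial fission GTPase (−1.38), and the caspase inhibitor Xiap (−1.22). With the trend removed these 3 stood at −0.42, −0.75 and 0.04, and none was past 2-fold. Opa1, the inner membrane fusion GTPase, was at −0.99 as counted and −0.35 with the trend removed. Cycs, which encodes cytochrome c, was at 0.29 and 0.84 on these scales, Apaf1 at −0.56 and −0.05, and the initiator Casp9 at −0.10 and −0.24.

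Genes whose products act on the members were mixed. Of 19 kinases and phosphatases none was at least 2-fold higher in UKS and 1 was lower, where 5.81% and 10.7% of all genes were. It was the RSK kinase Rps6ka2, with 616 counts in UKS and 2793 in KS (4.01-fold lower in UKS [3.67 to 4.38], log2 −1.96, and −1.98 with the trend removed). The ERK1 gene Mapk3 was at 0.94 (7045 counts in UKS and 4129 in KS), the JNK gene Mapk8 at −0.86 and Gsk3b at −0.85. Once the trend was removed, Mapk3 stood at 0.46, Mapk8 at 0.02 and Gsk3b at −0.20. The list median was −0.20, and 0.02 with the trend removed. The 7 measured 14-3-3 genes lay between −0.42 (Ywhah) and 0.37 (Sfn), genes that stood at −0.65 and −0.16 after removal of the trend, with Ywhae at −0.31 and Ywhaq at −0.19 and a list median of −0.14 (−0.09 with the trend removed). Of 10 measured genes for the stability of MCL1 and BIM, 2 were past 2-fold, both lower in UKS, where 10.7% of all genes were, and the median was 0.32. None was past 2-fold with the trend removed, and the median was 0.04. The deubiquitinase Usp9x, which stabilizes MCL1, had 1970 counts in UKS and 8606 in KS (log2 −1.94), and the ubiquitin ligase Huwe1, which marks MCL1 for degradation, had 7171 counts in UKS and 19783 in KS (−1.28). These are long transcripts of 11887 and 14579 nt, and with the trend removed they stood at −0.57 and −0.31. The co-chaperone Bag3 was at 0.64, and at 0.28 after removal of the trend.

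Of 17 measured transcription factors known to act on members, 1 was at least 2-fold higher in UKS and none lower. The shares of all genes were 5.81% and 10.7%. Stat5a, which can induce Bcl2l1, had 1063 counts in UKS and 421 in KS, a log2 ratio of 1.46 and of 1.25 with the trend removed. Creb1, which can induce Bcl2, was at −0.91 as counted and at 0.23 with the trend removed. Trp53, which encodes p53, was at 0.57 and Atf4 at −0.68. The trend-removed values were 0.20 for Trp53 and −1.08, past 2-fold, for Atf4. The median of this list was 0.21, and 0.22 with the trend removed. These lists were chosen with earlier results known, and their counts describe them only.

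**Figure D5:**
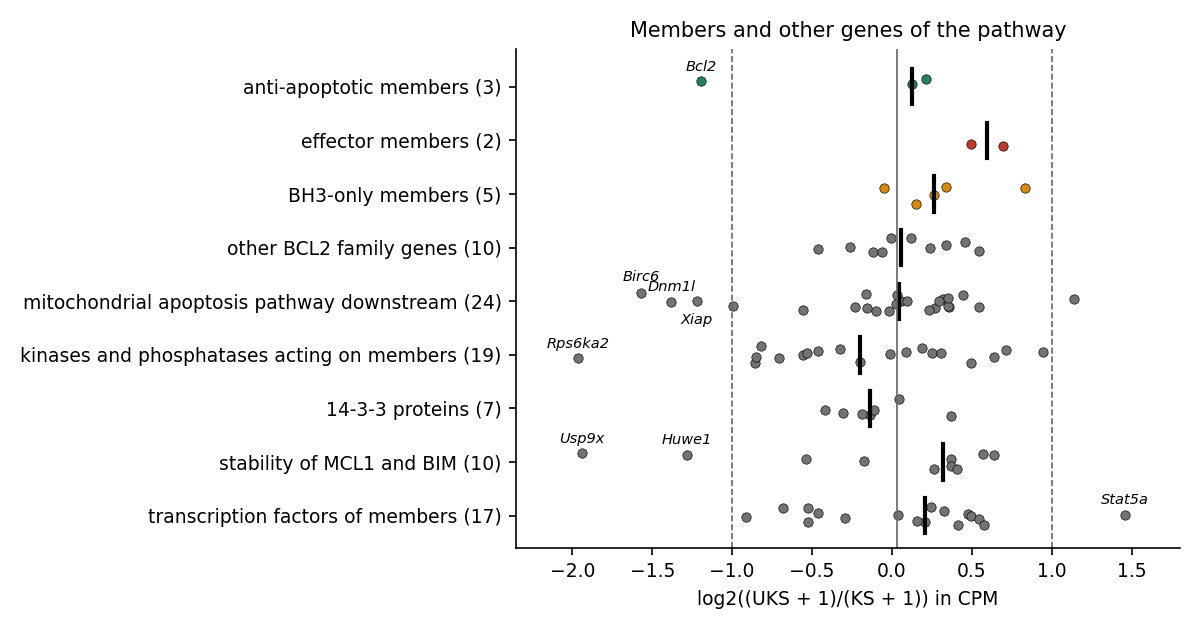
Log2 ratio of UKS over KS of each measured member (coloured) and of other genes of the pathway (grey), by list, with the number measured in brackets, the list median as a thick bar, the median of all genes as a thin line and 2-fold as dashed lines. Names stand beside genes past 2-fold, apart from 1 downstream gene, and Bcl2 is the only member among them.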

How the data were processed

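RNA-seq of total RNA (TruSeq libraries, per the labels' protocols) was measured in 1 UKS and 1 KS library. The deposited values are expected counts, which the authors estimated for every gene without scaling for depth. Of genes above 0, 21.5% in UKS and 23.1% in KS were not whole, and all were rounded. The submitters' processing notes name HISAT2, StringTie and GRCm38.p5, with no role stated. For the counting program, annotation release and use of strand the entry is: not given in the sources used here. TMM factors were 1.01 for UKS and 0.994 for KS (edgeR 4.0.16, R 4.3.3). At these depths 1 count equals 0.0428 CPM in UKS and 0.0379 CPM in KS.

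Genes averaging 1 CPM or more over both libraries were compared, with a pseudocount of 1 CPM. Being 2-fold apart was a size, not a test. Ratios carry exact conditional binomial and levels exact Poisson 95% intervals (scipy 1.17.1). PCR reads without molecular identifiers are not independent molecules, so intervals cover counting error only. Lengths, GC content, coordinates and sequences came from GENCODE M21, in which 51633 of 51912 gene identifiers were found, with the longest protein-coding transcript taken per gene. The trend was a Tukey biweight regression (statsmodels 0.14.6) with cubic terms in transcript length, on the log2 scale and limited to 200 to 20000 nt, and in GC content between 35 and 65%, for which genes of any list were left out of the fit. The steps were tested on simulated data. Alternatives were other scalings (DESeq2 1.42.0 size factors, upper-quartile factors, raw totals), pseudocounts and filters.

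The 10 members and all lists were chosen with earlier results of these data known. The BH3 search was planned on RefSeq proteins and used GENCODE coding sequence instead. Named were all members, Usp16, every gene of a pathway list past 2-fold and up to 4 with the largest ratios, the most abundant markers and, chosen after their values were seen, some others (Bok, Bcl2l2, Bcl2a1a, Bcl2a1b, Bcl2a1d, Bik, Hrk, Cycs, Apaf1, Casp9, Coro1a and overlapping genes). Itgam, on several rows of the files, was left out. Some genes of the lists, and another engineered change that UKS and KS both carry, are not reported here.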

Additional observations from a re-analysis of the deposited data

How the results depend on the processing

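Under the other scalings (raw totals, DESeq2 size factors, upper-quartile factors) and a pseudocount of 0.1 CPM each of the 10 members kept the sign of its log2 ratio, and Bcl2 stayed the 1 member past 2-fold, between −1.16 and −1.29. With a pseudocount of 5 CPM Bcl2 was at −0.89 and 0 members were past 2-fold, as the pseudocount is close to its level, and 412 genes were higher and 836 lower past 2-fold in place of 756 and 1396. With the length and GC trend removed 0 members were past 2-fold, 6 of 10 kept their sign, and 716 genes were higher and 644 lower, so that higher genes slightly outnumbered lower ones. Without a filter on low values, or with a minimum of 5 CPM, the count of members past 2-fold was the same.

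The anti-apoptotic over effector balance of UKS, relative to KS, was 0.698. It was 0.698 in CPM, 0.710 per kb of merged exons, 0.742 without the most abundant member of each class, and 0.932 with the trend removed, an alternative added after the data were seen. The BH3-only over anti-apoptotic balance was 1.17, and 1.07 without the most abundant members. No paired analysis was possible because each line gave 1 library.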
